A study of Homo sapiens with 56 samples.

Results

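Untreated cells of the line MJ at day 8 were compared with untreated MJ cells at day 4, with 4 arrays at each day, 8 of the 56 arrays of the series. The arrays were chosen by their labels alone. MJ is a human CD4+ T cell line that carries the virus HTLV-1 and serves as a model of cutaneous T-cell lymphoma (CTCL). The series tests cobomarsen, which blocks the microRNA miR-155, and these wells were its untreated controls. Cells grew in 6-well plates. At 96 hours a count of the untreated wells set the factor by which every well was split back, and 48 hours later fresh medium was added in equal volume. Day 8 therefore followed a passage that day 4 did not. The days were separate harvests, so time in culture, the passage and the harvest cannot be told apart. The other groups used here are untreated HuT102, another HTLV-1 carrying T cell line, untreated MyLa, a further CTCL line, and MJ with cobomarsen, each with 4 arrays at day 4 and 4 at day 8. Whether the 4 arrays of a group stem from separate cultures is not stated in the labels. The p-values therefore reflect only how these samples vary, which may be technical. Array numbers follow the order of deposition and pair nothing across days.

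The arrays of a day were alike. Correlations of log2 signals between arrays ran from 0.962 to 0.968 at day 4 and from 0.969 to 0.971 at day 8. Day 4 array 2 had the lowest median signal, 74.4 against 78.4 to 83.2 on the other 7 arrays, and the lowest upper quartile, 399.6. The median signal and the ratio of 3′ to 5′ GAPDH probe sets overlapped between the days (two-sided exact permutation p = 0.343 and 0.114). All 9 T cell markers measured, CD3D, CD3E and CD4 among them, reached a signal of 74.0, the median of all values, which serves here as the floor. Their summed signal was 50031 to 57550 at day 4 and 46789 to 51124 at day 8. Markers of other cells reached the floor in a group mean for 4 of 7 genes of B cells, 1 of 7 of monocytes, 2 of 4 of NK cells, 5 of 7 of fibroblasts, 3 of 8 of keratinocytes and epithelium, 1 of 5 of endothelium and 1 of 3 of red cell precursors. The highest of each had means of 280 and 313 (CD79A, day 4 and day 8), 120 and 81.7 (CSF1R), 131 and 61.9 (NCR1), 2140.0 and 2055 (COL3A1), 2549 and 2694 (KRT10), 174 and 155 (PECAM1) and 270.0 and 264 (HBB). MS4A1 of B cells, CD14 of monocytes and VWF of endothelium were under the floor at both days. No marker gene of these cell types was called between the days.

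Transformed T cells secrete cytokines and chemokines, which are folded in the endoplasmic reticulum (ER) by chaperones before they leave the cell. Activated T cells also induce microRNAs such as miR-155 and miR-146a, short RNAs that pair with messenger RNAs through their seed, bases 2 to 8, and lower their output. Transcripts of the spindle and kinetochore accumulate late in the cell cycle, when cells enter mitosis.

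The arrays do not measure mature microRNAs, but some transcripts that contain them can be read. The 3 described here were each higher at day 8. Of these, MIR146A and DLEU2 were picked because they were among the largest rises, so their shared direction is no separate evidence. Transcripts that contain microRNAs were not tested as a list, so nothing is said of the others. The mature sequences in the 3 transcripts are shown as RefSeq gives them on GRCh38.p14, 5′ to 3′, with the seed in capitals.
hsa-miR-155-5p: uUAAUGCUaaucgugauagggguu
hsa-miR-146a-5p: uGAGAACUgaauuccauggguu
hsa-miR-15a-5p: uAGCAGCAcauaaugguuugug
hsa-miR-16-5p: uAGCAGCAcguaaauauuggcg
They lie at chr21:25573983-25574006 and chr5:160485372-160485393 on the forward strand, and at chr13:50049167-50049188 and chr13:50049027-50049048 on the reverse strand. miR-15a and miR-16, both from the transcript DLEU2, share the seed AGCAGCA, while miR-155 and miR-146a each have their own.

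A gene was called where limma gave an adjusted p under 0.05 for log2(signal + 16), with Benjamini-Hochberg adjustment over all genes tested. Of 11845 genes, 189 were called (1.6%), 131 higher at day 8 (1.11%) and 58 lower (0.49%). Of these, 17 were at least 2-fold higher and 2 at least 2-fold lower (0.16% in all). The median log2 change of all genes tested was -0.0038, and 1419 genes had an unadjusted p under 0.05. Of the 11845 genes, 5817 had a positive log2 change. The list results below are to be read beside these shares. Single arrays moved the count of 189, to 96 without day 4 array 2, 124 without day 4 array 1 and 121 without day 8 array 1. The 4 values of one day lay wholly above those of the other for 665 genes higher at day 8 (5.61%) and 611 lower (5.16%). All 71 genes called and named below were among them except FOSB. Most of the 71 were named as the largest rises and falls, for which days without overlap were a condition of being named. For those genes the lack of overlap is therefore no separate evidence, here or where it is given below. For 32 of the 71, other probe sets of the gene were tested on their own, 50 in all, of which 41 had the same direction, 8 were also called, and none was called the opposite way. In bulk RNA a changed share of cells and a changed amount of RNA per cell cannot be told apart.

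**Figure D1:**
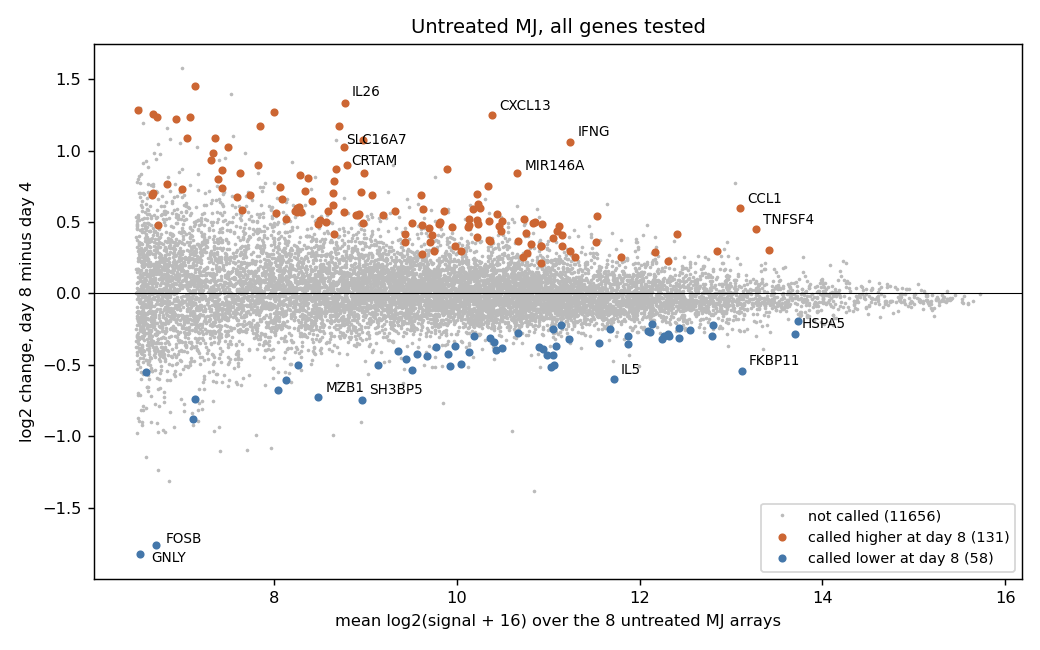
Log2 change from day 4 to day 8 in untreated MJ (vertical) against mean log2(signal + 16) of the 8 arrays (horizontal), 1 point for each of 11845 genes tested, coloured where limma called it. The 131 genes called higher and 58 called lower lie at the edges of the cloud, with IL26, CXCL13 and IFNG above it and GNLY and FOSB at the lowest signals below it.

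The host transcript of miR-155 was higher at day 8. Its signal was 15077, 15080, 14187 and 14289 on the arrays of day 4 and 20035, 20625, 19646 and 19520.0 on those of day 8. The days did not overlap and each was tight. The mean was 14658 ± 487 (SD, n = 4) against 19956 ± 496 (SD, n = 4), a log2 change of 0.44, or 1.36-fold. The two-sided exact permutation p was 0.0286, the smallest that 4 against 4 arrays allow. Its probe set names more than 1 gene and so was kept out of the tests across genes.

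MIR146A, the transcript that holds miR-146a, a microRNA induced by NF-kB that dampens innate immune signalling, had 1553, 1111, 1093 and 1073 at day 4 and 2365, 2279, 1743 and 2269.6 at day 8. Array 1 stood above the rest at day 4 and array 3 below the rest at day 8, and the days did not overlap. It rose 1.79-fold, a log2 change of 0.84 ± 0.19 (SE) (limma adjusted p = 0.00967). DLEU2 had 240.0, 148, 349 and 176 at day 4 and 425, 361, 388 and 425 at day 8. The day 4 arrays were spread and the day 8 arrays close together. It rose 1.78-fold, a log2 change of 0.83 ± 0.18 (SE) (limma adjusted p = 0.00491), a call lost without day 4 array 2 and in the 8 arrays fitted alone. Another of its probe sets was also called (log2 change 0.83, limma adjusted p = 0.0178), with a day 4 mean of 63.9 that is under the floor. The remaining one, of higher signal in MJ with means of 404 and 550, was not called (log2 change 0.44, limma adjusted p = 0.152).

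Helper T cell cytokines moved in both directions. Of 29 listed 19 were tested, 2 were called higher and 1 lower, and the list median was 0.04 on the log2 scale. IFNG, which encodes interferon gamma, the signature cytokine of type 1 helper cells, had 1788, 1522, 1583 and 1755 at day 4 and 4056, 3184, 3413 and 3330.1 at day 8. Every day 8 array was far above every day 4 array, with array 1 the highest. The rise was 2.09-fold, a log2 change of 1.06 ± 0.22 (SE) (limma adjusted p = 0.00371). IL26, a cytokine of the interleukin-10 family encoded near IFNG, had 228, 224, 248 and 357 at day 4 and 704, 619, 638 and 755 at day 8. The days did not overlap, although day 4 array 4 stood above the other day 4 arrays. It rose 2.51-fold, a log2 change of 1.33 ± 0.24 (SE) (limma adjusted p = 0.000616). Both calls were lost with log2(signal + 1), where the limma adjusted p was 0.199 for IFNG and 0.189 for IL26, and in no other alternative.

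IL5, a type 2 cytokine that acts on eosinophils, went down. It had 4499, 3889, 3963 and 4191 at day 4 and 2673, 2622, 2781 and 2818 at day 8. The day 8 arrays lay close together below all day 4 arrays. The fall was 1.51-fold, a log2 change of -0.60 ± 0.16 (SE) (limma adjusted p = 0.04). The call was lost when any 1 of the 8 arrays was left out, while the 8 arrays fitted alone gave a limma adjusted p of 0.000265. Of the other type 2 cytokines of the same gene cluster, IL13 had 3229 ± 289.9 at day 4 and 3026 ± 170.1 at day 8 (SD, n = 4 each, limma adjusted p = 0.902), with arrays that overlapped. IL4 had 261 ± 77.7 and 197 ± 15.0 (limma adjusted p = 0.814). IL6, an inflammatory cytokine, had 895 ± 85.4 and 1052 ± 105 (limma adjusted p = 0.774). IL10 was under the floor in mean at both days and was not tested.

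Among chemokines, 10 of 19 listed were tested, 3 were called higher and none lower. The list was split, with 5 positive and 5 negative log2 changes from -1.38 to 1.25 and a median of 0.29 that lies between them. CXCL13, which draws B cells into follicles and is made by follicular helper T cells, had 808, 783, 844 and 977 at day 4 and 2487, 1954, 1886 and 1881 at day 8. Day 8 array 1 stood above the other 3, and all 4 were above day 4. The rise was 2.37-fold, a log2 change of 1.25 ± 0.19 (SE) (limma adjusted p = 3.87e-05). CCL17, a ligand of CCR4, the receptor of skin-homing T cells, had 292, 325, 258 and 320.5 at day 4 and 547, 493, 505 and 442 at day 8. It rose 1.63-fold (limma adjusted p = 0.0119), a call lost without day 4 array 3 or day 8 array 1. CCL1, the ligand of CCR8, rose from 7114 ± 344 to 10772 ± 938 (SD, n = 4 each), 1.51-fold (limma adjusted p = 0.00807), a call lost without day 8 array 1. Of the 3 chemokines, CXCL13 alone kept its call without that array, and with log2(signal + 1) all 3 lost it, at a limma adjusted p of 0.148, 0.263 and 0.494.

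Other chemokines had days apart but no call. CXCL8, which attracts neutrophils, had 3265, 2949, 2725 and 2918 at day 4 and 976, 1244, 1178 and 1131 at day 8. The days did not overlap, and the 4 arrays of each were close together. Its log2 change of -1.38 ± 0.43 (SE) was not called (limma adjusted p = 0.0902), since the standard error comes from the spread in all 14 groups of the series. In the 8 arrays alone the limma adjusted p was 2.26e-06, and a second probe set was called when every probe set was tested on its own (log2 change -1.49, limma adjusted p = 0.00327). CCL22, the other ligand of CCR4, had 2571 ± 317 at day 4 and 3966 ± 403 at day 8, also without overlap (limma adjusted p = 0.34, and 0.00351 in the 8 arrays alone).

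No receptor tested for these ligands was called. Of 18 chemokine receptors listed 10 were tested, and of 29 cytokine receptors 26 were tested. None passed, with list medians of 0.03 and 0.06. CCR4 had a mean signal of 3822 at day 4 and 4158 at day 8, CCR8 had 704 and 721, and IL2RA, the alpha chain of the interleukin-2 receptor, had 16584 and 16246. TNFSF4, the ligand of the costimulatory receptor OX40, was the 1 gene called of 18 in the tumour necrosis factor superfamily. It had 7855, 8846, 8784 and 8284 at day 4 and 11764, 11222, 11456 and 11623 at day 8, tight at both, and rose 1.36-fold, a log2 change of 0.45 ± 0.08 (SE) (limma adjusted p = 0.00038). CRTAM, an adhesion receptor of activated cytotoxic and helper T cells, had 275, 212, 361 and 334 at day 4 and 702, 621, 511 and 602 at day 8. It rose 2.03-fold (limma adjusted p = 0.00038), a call lost only with log2(signal + 1). GNLY, a protein of cytotoxic granules, had 216, 77.1, 185 and 200.4 at day 4 and 52.5, 35.6, 42.4 and 12.8 at day 8 and was called lower (limma adjusted p = 0.006). Its day 8 values were all under the floor, so no fold is given, and the call was lost without day 8 array 4. GNLY was tested in only 11 of 18 alternatives, 5 of them with an array left out. A second probe set of GNLY was not called (log2 change -1.06, limma adjusted p = 0.266).

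**Figure D2:**
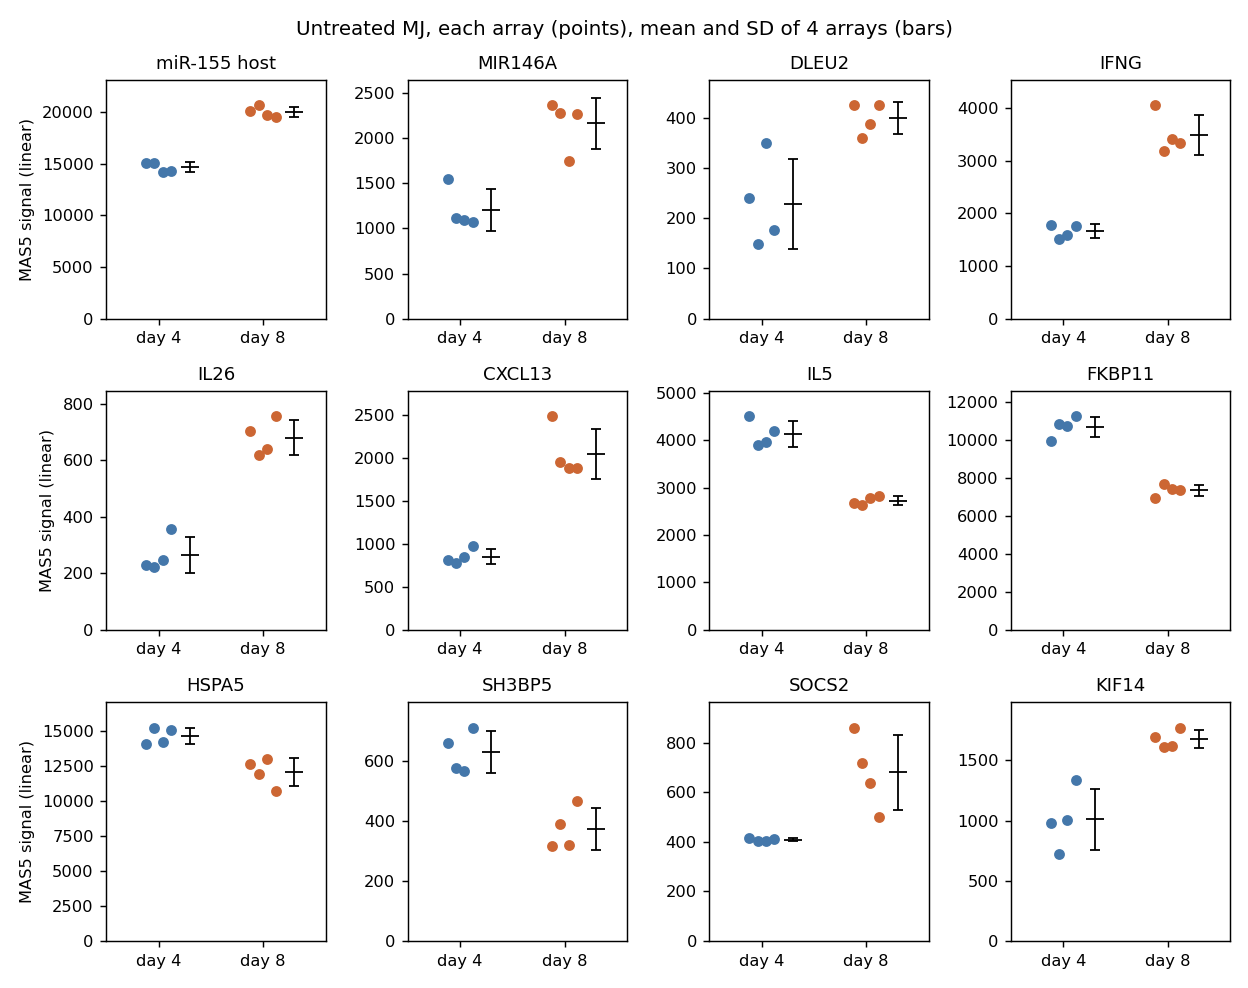
Linear MAS5 signal of each untreated MJ array for 12 transcripts, day 4 in blue and day 8 in orange, with the mean and SD of 4 arrays as bars and axes from 0. In each panel the 4 arrays of one day lie apart from those of the other, with IL5, FKBP11, HSPA5 and SH3BP5 lower at day 8 and the other 8 transcripts higher.

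Chaperones of the ER were lower at day 8 by small amounts. Of 23 genes of the unfolded protein response and ER chaperones, all tested, 5 were called lower and none higher, and 2 of 23 had a positive log2 change. Of all genes tested, 0.49% were called lower and 5817 of 11845 had a positive change. The list median was -0.19. HSPA5, which encodes BiP, the HSP70 chaperone of the ER, had 14035, 15220.5, 14182 and 15046 at day 4 and 12618, 11896, 13011 and 10721 at day 8. The days did not overlap, and day 8 array 4 was the lowest. The fall was 1.21-fold, a log2 change of -0.28 ± 0.07 (SE) (limma adjusted p = 0.0201). HSP90B1, the HSP90 chaperone of the ER, had 5789, 5057, 5634 and 5372 at day 4 and 4346, 4418, 4514 and 4480.3 at day 8. Its day 8 arrays were nearly equal, and it fell 1.23-fold (limma adjusted p = 0.00893). The lectin chaperone CALR fell 1.23-fold (limma adjusted p = 0.0387). That call was lost in 9 of 18 alternatives, among them quantile normalization and the 8 arrays fitted alone (limma adjusted p = 0.064). Other CALR probe sets were not called (log2 changes -0.29 and -0.13, limma adjusted p = 0.563 and 0.664). The ER stress proteins MANF and CRELD2 each fell 1.24-fold (limma adjusted p = 0.00788 and 0.0108).

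The remaining 18 members were not called. DNAJB9, a co-chaperone of BiP, had 2974 ± 155 at day 4 and 2424 ± 126 at day 8 (SD, n = 4 each, limma adjusted p = 0.0607). HYOU1, an exchange factor for BiP, had 6165 ± 431 and 5279.7 ± 269 (limma adjusted p = 0.366). XBP1, a transcription factor of the response, had 2417 ± 324 and 2099 ± 72.2 (limma adjusted p = 0.431), and PDIA4, a disulfide isomerase, had 5146 ± 349 and 4777 ± 189 (limma adjusted p = 0.573).

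Day 4 array 2 moved with this group. Among day 4 arrays it was the highest for HSPA5, CALR, MANF and CRELD2 and the lowest for HSP90B1. Without it 1 of the 23 genes was called lower, HSP90B1, at a list median of -0.16, and without day 4 array 1, day 8 array 2 or day 8 array 4 there were 3. By gene, the call on HSPA5 was lost without day 4 array 2 or 4 or day 8 array 2 or 4, that on CALR without day 4 array 1 or 2 or day 8 array 2 or 4, that on HSP90B1 without day 4 array 1, and those on MANF and CRELD2 without day 4 array 2. With each array centred on its median, CRELD2 alone was called and the list median was -0.23, with all genes at -0.04. The part of that array's overall signal in the result was not tested.

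FKBP11, MZB1, SIL1, EDEM2 and GMPPA were among the 20 largest falls and are on none of the lists. They are given together for what is known of their products, were put side by side after their values were seen, and were not tested as a group. FKBP11, a prolyl isomerase of the ER, had 9966, 10835, 10773 and 11250.2 at day 4 and 6968, 7673, 7416 and 7369.9 at day 8. The days were far apart, and the fall was 1.45-fold, a log2 change of -0.54 ± 0.07 (SE) (limma adjusted p = 1.48e-06, at most 0.000265 over 18 alternatives). Of its other probe sets one was called lower (log2 change -0.48, limma adjusted p = 2.26e-05) and one was not called (log2 change -0.09, limma adjusted p = 0.918). MZB1, an ER co-chaperone known from antibody secretion, had 458, 372, 514 and 446 at day 4 and 255, 211, 292 and 301 at day 8. It fell 1.65-fold (limma adjusted p = 1.05e-05, and 0.0213 in the 8 arrays alone), and its other probe set was not called (log2 change -0.52, limma adjusted p = 0.269). SIL1, an exchange factor for BiP, fell 1.37-fold from 800.0 ± 67.4 to 579 ± 51.3 (limma adjusted p = 0.00519). EDEM2, which trims mannose from misfolded glycoproteins, fell 1.32-fold from 737 ± 26.6 to 554 ± 36.8 (limma adjusted p = 0.00462). The calls on FKBP11, MZB1, SIL1 and EDEM2 were kept in every alternative. GMPPA, a regulator of GDP-mannose supply, fell 1.34-fold (limma adjusted p = 0.00984), a call lost without day 4 array 2.

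The promoters of the chaperone genes called lower were searched for the ER stress response element, CCAAT followed after 9 bases of any kind by CCACG, on both strands of the RefSeq window from 250 bases before to 50 after the gene start on GRCh38.p14. The matches are shown because several members that fell hold this element. It occurred in 27 of 35116 promoters (0.0769%) and in 8 of the 22 list genes with a promoter entry. The list was drawn up for the response that this element is named for, so these shares say nothing about the days. Capitals mark the match, with 5 bases on each side, along the strand of the gene.
HSPA5: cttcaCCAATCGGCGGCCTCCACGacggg
HSP90B1, first match: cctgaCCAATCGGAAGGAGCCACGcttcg
HSP90B1, second match: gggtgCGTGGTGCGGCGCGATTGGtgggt
CALR: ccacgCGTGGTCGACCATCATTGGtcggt
CRELD2: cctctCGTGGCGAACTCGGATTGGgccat
The HSPA5 stretch is chr9:125241386-125241414 on the reverse strand, with the match 48 bases before the start. Those of HSP90B1 are chr12:103930211-103930239 and chr12:103930316-103930344, and those of CALR and CRELD2 are chr19:12938379-12938407 and chr22:49918549-49918577, all on the forward strand. The second match of HSP90B1 and those of CALR and CRELD2 read as the reverse complement. MANF held no match in this window, and the other list genes with one, CANX, ERO1B, PDIA6 and XBP1, were not called. A match describes letters only, and any part of the element in the fall was not tested.

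Related stress pathways gave few calls. None of 26 genes of the integrated stress response was called, with a list median of -0.17 and 3 of 26 positive. TRIB3, a target of that response, had 3603, 5508, 3570.0 and 3776 at day 4 and 3166, 3346, 3353 and 3113 at day 8 (limma adjusted p = 0.058), and day 4 array 2 again stood above the rest. SLC3A2, the heavy chain shared by several amino acid transporters, had 2509, 2663, 2385 and 2535 at day 4 and 1852, 1549.8, 1857 and 1866 at day 8. It fell 1.42-fold (limma adjusted p = 0.0052) and was the 1 gene called of 13 amino acid transporters. None of 10 heat shock genes, 34 genes of hypoxia and glycolysis or 23 targets of p53 was called.

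Mitotic transcripts were slightly higher at day 8. Of 37 genes of mitosis and G2/M, all tested, 5 were called higher and none lower, and 36 had a positive log2 change, with a list median of 0.17. Of all genes tested, 1.11% were called higher and 5817 of 11845 had a positive change. CENPE, the kinesin of the kinetochore, had 973, 1124, 1162 and 1269 at day 4 and 1474, 1867, 1485 and 1865 at day 8. The days did not overlap and each was spread, and the rise was 1.47-fold, a log2 change of 0.55 ± 0.12 (SE) (limma adjusted p = 0.006). CENPF, another kinetochore protein, rose 1.31-fold (limma adjusted p = 0.0249). The spindle checkpoint kinase TTK rose 1.27-fold (limma adjusted p = 0.0189), and BUB1B, of the same checkpoint, rose 1.22-fold (limma adjusted p = 0.00289). PRC1, which bundles microtubules of the central spindle, rose from 4699 ± 201 to 5505 ± 136 (limma adjusted p = 0.00786).

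The number of mitotic genes called was 3 without day 4 array 1 or day 8 array 2 and 8 without day 4 array 4. The call on TTK was lost without day 4 array 1 or day 8 array 2 and in the 8 arrays fitted alone (limma adjusted p = 0.0516). That on CENPF was lost without day 4 array 1 or 2 or day 8 array 2, 3 or 4 and with only the 16 MJ arrays. With arrays centred on their median CENPE alone was called and the list median was 0.14. Widely used markers of proliferation were not called. MKI67 had 1809.9 ± 187 at day 4 and 1905 ± 121 at day 8 (SD, n = 4 each, limma adjusted p = 0.863), CDK1 had 7133 ± 903 and 7980.5 ± 249 (limma adjusted p = 0.597), and CCNB1 had 6359 ± 252 and 7040.3 ± 373 (limma adjusted p = 0.481). None of 40 genes of DNA replication and G1/S was called, and their median of 0.02 became -0.01 with centred arrays. KIF14, ASPM and KNL1, mitotic genes outside the list that were chosen after their values were seen, rose too. KIF14, a kinesin of cytokinesis, had 979, 719.6, 1005 and 1332 at day 4 and 1695, 1614, 1616 and 1772 at day 8 (limma adjusted p = 0.00179), and its other probe set was called higher as well (log2 change 0.53, limma adjusted p = 0.024). ASPM, a spindle pole protein, rose 1.46-fold (limma adjusted p = 0.00179), but of its other probe sets one was not called (log2 change 0.64, limma adjusted p = 0.189) and one had the opposite sign without a call (log2 change -0.17, limma adjusted p = 0.866). KNL1, a kinetochore scaffold, rose 1.34-fold (limma adjusted p = 0.0109), a call lost without day 4 array 1 and with centred arrays, where the limma adjusted p was 0.104.

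**Figure D3:**
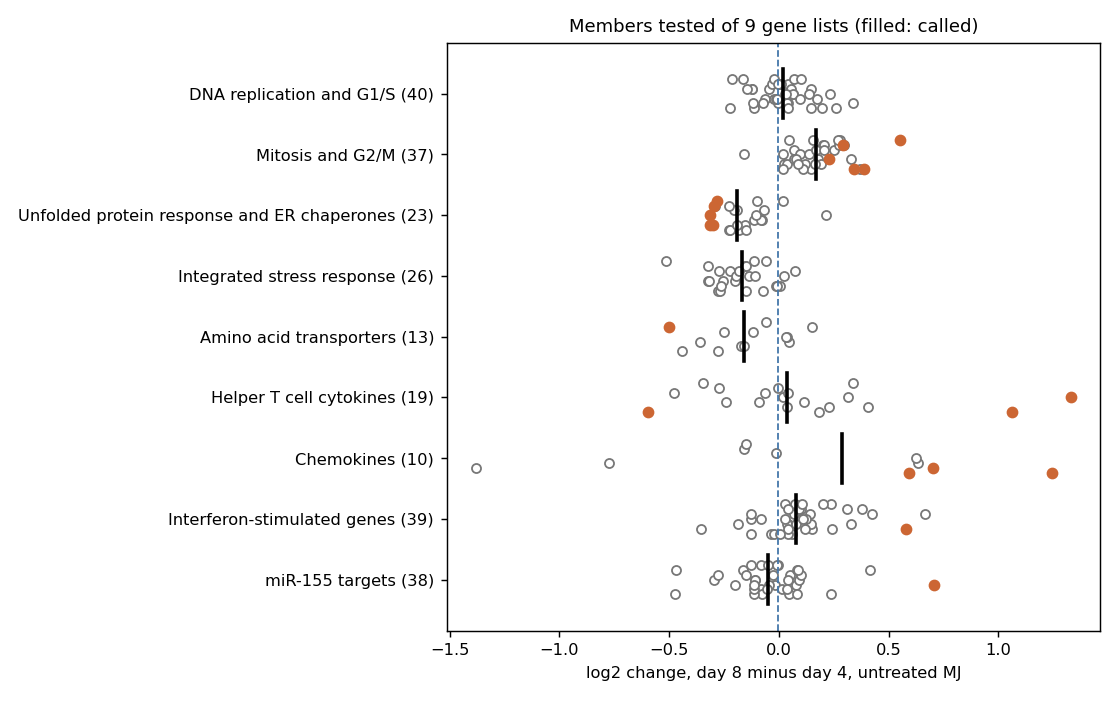
Log2 change from day 4 to day 8 in untreated MJ of each tested member of 9 gene lists (number tested in brackets), filled where limma called it, with list medians as black bars and the median of all genes tested as a dashed line. The mitosis list (median 0.17) lies mostly to the right and the ER chaperone list (-0.19) mostly to the left, while single cytokines and chemokines lie farthest out.

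Signalling regulators changed one by one. SOCS2, a feedback inhibitor of cytokine receptors, had 416, 401, 404 and 410.5 at day 4 and 860.3, 718, 638 and 501 at day 8. The day 4 arrays were nearly equal and the day 8 arrays spread above them, a rise of 1.61-fold and a log2 change of 0.69 ± 0.10 (SE) (limma adjusted p = 7.81e-06). Its other probe set was called too (log2 change 0.73, limma adjusted p = 0.000249). In the 8 arrays alone SOCS2 had a limma adjusted p of 0.0227. No other of 16 JAK-STAT feedback genes was called, and SOCS3 had 776 ± 89.4 and 1154 ± 85.6 (limma adjusted p = 0.0694). SH3BP5, an adaptor that binds the kinase JNK, had 663, 579.6, 569 and 713 at day 4 and 319, 389.7, 319 and 469 at day 8. It fell 1.67-fold, a log2 change of -0.74 ± 0.09 (SE) (limma adjusted p = 1e-06), and kept its call in every alternative. In the 8 arrays alone the limma adjusted p was 0.0135, and the other probe set was not called (log2 change -0.38, limma adjusted p = 0.215).

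The small GTPases RRAD and GEM, of the same family, moved in opposite directions. RRAD had 205, 188, 73.9 and 168 at day 4 and 341, 324, 454 and 426 at day 8 and rose 2.41-fold (limma adjusted p = 0.0201). That call was lost without day 4 array 3, day 8 array 3 or day 8 array 4 and with log2(signal + 1), and its other probe set was not called (log2 change 0.85, limma adjusted p = 0.219). GEM had 2719, 2427, 2319 and 2500.2 at day 4 and 1600.3, 1753, 1631 and 1975 at day 8 and fell 1.43-fold (limma adjusted p = 0.00119), with its call kept in every alternative. RHOH, a GTPase of blood cells, fell 1.33-fold (limma adjusted p = 0.00179). TSC22D1, a leucine zipper protein induced by TGF-beta, had 375, 301, 317 and 326 at day 4 and 199.9, 250.2, 174 and 226 at day 8. It fell 1.52-fold (limma adjusted p = 0.000177, and 0.047 in the 8 arrays alone), while its other probe set had the opposite sign without a call (log2 change 0.35, limma adjusted p = 0.431). ARRB1, a beta-arrestin, fell 1.6-fold (limma adjusted p = 0.0023), but none of its 4 other probe sets was called, with log2 changes from -0.18 to 0.02. FOSB, an immediate early gene of the AP-1 family, was called lower (limma adjusted p = 0.0217), with 297, 297, 122 and 87.2 at day 4 and 37.7, 25.1, 18.3 and 124 at day 8. Its days overlapped. The call was lost without day 8 array 1, 2 or 3, with log2(signal + 1), with only the 16 MJ arrays and in the 8 arrays fitted alone.

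Several regulators of transcription were called. BACH2, a repressor that restrains effector T cells, had 613, 686, 535 and 579 at day 4 and 966, 873, 834 and 745 at day 8 and rose 1.41-fold (limma adjusted p = 0.00371). A second BACH2 probe set was not called (log2 change 0.24, limma adjusted p = 0.627). No other of 23 lineage factors was called. GATA3, the factor of type 2 helper cells, had means of 11534 and 10763, and TBX21, that of type 1 helper cells, had 1423 and 1993 (limma adjusted p = 0.758 and 0.471). NFIL3, a repressor that also acts in the circadian clock, had 4054, 4308, 4316 and 4166 at day 4 and 3213, 3286, 3201 and 3485 at day 8 and fell 1.28-fold (limma adjusted p = 0.00102). FOXO1, a factor of quiescence and homing, rose 1.4-fold (limma adjusted p = 0.0351), a call kept only without day 4 array 3 among the 8 arrays left out in turn and lost with centred arrays or log2(signal + 1). A second FOXO1 probe set was not called (log2 change 0.27, limma adjusted p = 0.341). ZBED2, a zinc finger repressor, rose 1.83-fold from 688 ± 47.2 to 1276 ± 158 (limma adjusted p = 0.0233), a call lost without any 1 of the arrays other than day 4 array 1 and day 8 array 4 and with log2(signal + 1). MAML2, a coactivator of Notch, had 126, 76.8, 107 and 150.4 at day 4 and 248, 225, 200.0 and 200.4 at day 8 and rose 1.82-fold (limma adjusted p = 1.44e-05, and 0.041 in the 8 arrays alone). TET3, which oxidizes methylated cytosine, rose 1.39-fold (limma adjusted p = 0.0276), a call lost without day 4 array 2 or 4 or day 8 array 1 or 4 and with centred arrays.

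Of 22 adhesion and migration genes tested, 3 were called higher and 1 lower. ITGAE, the integrin chain CD103 of T cells that settle in epithelium, had 2096, 2202, 2172 and 2162 at day 4 and 2736, 2707, 2646 and 2531 at day 8. Both days were tight, and the rise was 1.23-fold (limma adjusted p = 0.00179), a call lost with arrays centred on their median, where the limma adjusted p was 0.22. ALCAM, the ligand of CD6, rose 1.32-fold (limma adjusted p = 0.000393), and TIMP1, an inhibitor of metalloproteinases, rose 1.39-fold (limma adjusted p = 0.00179). SELPLG, the selectin ligand that carries the skin-homing epitope CLA, had 1173, 1161, 995 and 1038 at day 4 and 757, 805, 795 and 880.3 at day 8 and fell 1.34-fold (limma adjusted p = 0.0106). Its call was lost without day 4 array 1, day 4 array 2 or day 8 array 1 and with centred arrays. ACTN1, which cross-links actin, rose 1.43-fold (limma adjusted p = 0.000276), while its other probe sets were not called (log2 changes 0.37 and 0.43, limma adjusted p = 0.207 and 0.169).

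Calls among transport and lipid genes were few. SLC16A7, a carrier of pyruvate and lactate, had 156, 277, 284 and 389 at day 4 and 553, 630.2, 619 and 656 at day 8 and rose 2.25-fold (limma adjusted p = 0.00102). The call was kept in every alternative, but none of its 4 other probe sets was called and 1 of them had the opposite sign. STARD4, which carries cholesterol between membranes, rose 1.34-fold (limma adjusted p = 0.00491), the 1 gene called of 19 of cholesterol synthesis and uptake. That call was lost with centred arrays, where the limma adjusted p was 0.0726. SLC39A10, a zinc importer, rose 1.28-fold (limma adjusted p = 0.0187), a call lost without day 4 array 1, day 4 array 2 or day 8 array 3 and with centred arrays. ENPP2, or autotaxin, which makes lysophosphatidic acid, had 339, 376, 328 and 350.8 at day 4 and 195, 278, 304 and 204 at day 8 and fell 1.42-fold (limma adjusted p = 0.000393). The call was lost in the 8 arrays fitted alone (limma adjusted p = 0.114), and the other probe set was not called (log2 change -0.38, limma adjusted p = 0.0815).

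Other large changes were less certain readings or of genes outside these groups. HMGN2P46, a pseudogene, had 107, 51.9, 58.9 and 68.2 at day 4 and 254, 188, 199.5 and 233 at day 8 (limma adjusted p = 0.00254), and its day 4 mean of 71.6 is under the floor. That call was lost with log2(signal + 1), at a limma adjusted p of 0.0969. NOMO3 had 213, 54.6, 195 and 144 at day 4 and 368, 307, 286 and 359 at day 8 (limma adjusted p = 0.0119), but it has near-identical copies that the probes may not separate, and the call was lost without day 4 array 2 or day 8 array 1 and in the 8 arrays fitted alone. DIDO1 rose 1.8-fold (limma adjusted p = 0.0108) with day 4 array 3 above the other day 4 arrays, and of its other probe sets 1 was called higher and 2 had the opposite sign without a call. That call was lost without day 4 array 2. SERPINA1, which encodes antitrypsin, rose 1.87-fold (limma adjusted p = 0.0387), a call lost without any 1 of the 8 arrays, though its other probe set was called as well (log2 change 1.14, limma adjusted p = 0.0256). SYNE2, a link between nucleus and cytoskeleton, rose 1.74-fold (limma adjusted p = 0.00101). TMEM273, a membrane protein, fell 1.42-fold (limma adjusted p = 7.89e-06), and THG1L, an enzyme that modifies transfer RNA, fell 1.41-fold (limma adjusted p = 0.00754), the latter lost without day 4 array 2. SEL1L3, a transmembrane protein, fell 1.45-fold from 861 ± 67.5 to 588 ± 30.9 (limma adjusted p = 0.00587).

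The rest of the 20 largest rises were transcripts of low or moderate signal. TMEM229B, a transmembrane protein, had 106 ± 52.8 at day 4 and 226 ± 50.8 at day 8 (SD, n = 4 each, limma adjusted p = 0.00984), a call lost without day 4 array 2 or day 8 array 3, with log2(signal + 1), with only the 16 MJ arrays and in the 8 arrays fitted alone. COXFA4L3 had 332 ± 18.9 and 726 ± 139.8 (limma adjusted p = 0.0134), a call lost without day 4 array 2 or day 8 array 1 and with log2(signal + 1). The antisense transcript MAP3K20-AS1 had 99.3 ± 12.9 and 212 ± 30.3 (limma adjusted p = 0.000418), a call lost with log2(signal + 1) and with only the 16 MJ arrays. ANKRD36B, which has close copies in the genome, had 293 ± 70.1 and 542 ± 62.5 (limma adjusted p = 0.00768), a call lost without day 4 array 2. PGM5-AS1 had 132 ± 10.4 and 249.6 ± 21.9 (limma adjusted p = 0.0201), a call lost without day 4 array 2 or 3 or day 8 array 1 or 4, with its other probe set of opposite sign and not called (log2 change -0.14, limma adjusted p = 0.926). The rest of the 20 largest falls were FXYD2, CAMK1 and RPP25L. FXYD2, a regulator of the sodium pump, went from 658 ± 69.1 to 461 ± 42.5 (limma adjusted p = 0.0201), a call lost without day 4 array 1 or 2 or day 8 array 1, 2 or 4. CAMK1, a kinase activated by calmodulin, went from 935 ± 43.7 to 693 ± 124 (limma adjusted p = 0.0435), a call lost without any 1 of the arrays except day 8 array 1, with centred arrays, with log2(signal + 1), with no filter and in the 8 arrays fitted alone. RPP25L, related to a subunit of ribonuclease P, went from 2444 ± 77.6 to 1827 ± 322 (limma adjusted p = 0.00154), with day 8 array 4 above the other day 8 arrays and its call kept in every alternative.

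Targets of miR-155 were read beside its host transcript. Of 47 listed 38 were tested, 1 was called higher and none lower, 14 had a positive log2 change, and the list median was -0.05. The gene called was SMAD5, a transducer of bone morphogenetic protein signals, with 277, 295, 506 and 456 at day 4 and 612, 617, 592 and 645 at day 8 (limma adjusted p = 0.0023). None of its 4 other probe sets was called, with log2 changes from -0.05 to 0.30. SOCS1, a feedback inhibitor of cytokine signals, had means of 3451 and 3694, INPP5D, the phosphatase SHIP1, had 974 and 945, and ETS1, a transcription factor of lymphocytes, had 8595 and 8076.

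Of 45 lists other than cell type markers, 24 had no gene called, with medians from -0.17 to 0.08. Among them were the T cell receptor complex (26 tested), MHC class II (14) and class I presentation (16), NF-kB targets (27), oxidative phosphorylation (37) and the ribosomal proteins of cytosol (20) and mitochondria (26). The median of cytosolic ribosomal proteins, -0.05, became 0.01 after quantile normalization. In all, 35 of 854 list genes tested were called, beside 189 of all 11845 genes tested (1.6%).

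The same days were set side by side in other untreated lines. In HuT102, 1012 of 11520 genes were called (8.78%), 533 higher (4.63%) and 479 lower (4.16%). In MyLa 1457 of 11043 were called (13.2%), 739 higher (6.69%) and 718 lower (6.5%). No array is shared with MJ. Across genes, which are not independent, the log2 changes of MJ had r = 0.06 with those of HuT102 (10791 genes) and r = -0.01 with those of MyLa (10382 genes). Of the 189 genes called in MJ, 23 were called in the same direction in HuT102 and 16 in the opposite one, and in MyLa 23 and 12. The 23 are 12.2% of the MJ calls in both cases, 2.27% of those in HuT102 and 1.58% of those in MyLa. The mitosis list, with a median of 0.17 in MJ, had -0.18 in HuT102 (none higher and 5 lower of 37) and -0.17 in MyLa (none higher and 13 lower). The ER chaperone list, with a median of -0.19 in MJ, had -0.14 in HuT102 (1 higher and 6 lower of 23) and -0.06 in MyLa (1 higher and 4 lower). Differences between the lines in these medians were not tested.

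Some changes described for MJ were also called in the same direction elsewhere, and others in the opposite one. The genes given here are examples, to be read beside the counts of both directions above. MIR146A rose in HuT102 by 0.60 and in MyLa by 0.62 on the log2 scale (limma adjusted p = 0.0384 and 0.024), and in MJ with cobomarsen by 0.85 (limma adjusted p = 0.00437). The host transcript of miR-155 had 19475 ± 1188 at day 4 and 24428 ± 1096 at day 8 in HuT102 and 23909 ± 1570.1 and 24943 ± 1277 in MyLa (SD, n = 4 each), which were not tested. DLEU2, CRTAM and CXCL13 rose in HuT102, by 0.61, 0.92 and 0.70 (limma adjusted p = 0.0206, 0.000204 and 0.0113). TNFSF4, SOCS2 and ITGAE rose in MyLa, by 0.42, 0.32 and 0.17 (limma adjusted p = 0.000162, 0.0195 and 0.0392). FKBP11 fell in MyLa, with a log2 change of -0.32 (limma adjusted p = 0.00111). Opposite to MJ, TNFSF4 and ITGAE fell in HuT102, with log2 changes of -0.23 and -0.24 (limma adjusted p = 0.0462 and 0.00495). ACTN1 and BUB1B fell there as well, with log2 changes of -0.50 and -0.23 (limma adjusted p = 5.88e-05 and 0.00874). NFIL3 rose there by 0.37 (limma adjusted p = 9.55e-05). In MyLa PRC1 and CENPF fell, with log2 changes of -0.25 and -0.37 (limma adjusted p = 0.000704 and 0.00902). HSPA5 fell in HuT102 and in MyLa too, by 0.32 and 0.24 on the log2 scale (limma adjusted p = 0.00147 and 0.0174). HSP90B1 fell there by 0.21 and 0.26 (limma adjusted p = 0.0423 and 0.00774).

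The difference of the day effect, MJ minus HuT102, was called for 471 of 11791 genes (3.99%), 169 positive (1.43%) and 302 negative (2.56%). Without HuT102 day 8 array 4 it was 307. Of the 471, 451 were tested in both lines by themselves, and the genes given with a difference here and for the other contrasts are chosen from such genes after their values were seen. The interferon response moved in HuT102, where 36 of 42 such genes were called higher and all 42 had a positive log2 change, with a median of 1.14. In MJ 1 of 39 was called higher and 31 had a positive log2 change, with a median of 0.08. IFITM1, an antiviral membrane protein, had 13807 ± 447 and 15019 ± 365 in MJ and 1045 ± 85.5 and 5726 ± 719.9 in HuT102 (log2 difference -2.31, limma adjusted p = 1.33e-18). USP18, a protease that removes ISG15, had 167 ± 27.4 and 148 ± 42.0 in MJ and 771 ± 92.5 and 3419 ± 684 in HuT102 (log2 difference -2.30, limma adjusted p = 1.62e-07). The interferon gene called in MJ was IFIT3, an antiviral RNA-binding protein, which had 544, 542, 469.7 and 484 at day 4 and 923, 769, 712 and 688 at day 8 (limma adjusted p = 0.00376). Its rise was smaller than in HuT102 (log2 difference -0.70, limma adjusted p = 0.00862).

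Some genes described above for MJ differed from HuT102 in their day effect. MZB1 fell in MJ and rose in HuT102, from 2692 ± 176 to 4221 ± 658 (log2 difference -1.36, limma adjusted p = 2.82e-09). TSC22D1 and ENPP2 also fell in MJ and rose in HuT102, with log2 differences of -1.06, limma adjusted p = 3.73e-07 and -0.93, limma adjusted p = 4.17e-07. CCL17 rose in MJ and fell in HuT102, from 8147 ± 397 to 5319 ± 412 (log2 difference 1.32, limma adjusted p = 0.00015). SOCS2, which rose in MJ, had 13913 ± 595 and 12337 ± 424 in HuT102 (log2 difference 0.86, limma adjusted p = 1.75e-05), and SLC16A7 had 869 ± 146 and 879.6 ± 128 there (log2 difference 1.15, limma adjusted p = 0.0205). FKBP11 had 2034 ± 123 and 2031 ± 67.7 in HuT102 (log2 difference -0.54, limma adjusted p = 0.000171), and SH3BP5 had 1111 ± 15.2 and 1043 ± 72.4 (log2 difference -0.65, limma adjusted p = 0.000828).

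Against MyLa the difference was called for 714 of 11585 genes (6.16%), 395 positive (3.41%) and 319 negative (2.75%), and for 392 without MyLa day 8 array 3. Of the 714, 684 were tested in both lines. CCL17 fell in MyLa, from 2466 ± 130.3 to 1272 ± 146 (log2 difference 1.66, limma adjusted p = 1.19e-05), and CCL22 fell there, from 624 ± 93.5 to 287 ± 54.8 (log2 difference 1.71, limma adjusted p = 0.0058). CXCL13 and SLC16A7 were under the floor in MyLa, with means of 7.28 and 4.98 and of 29.2 and 19.4, and no difference is given for them. MAML2 had 1346 ± 81.5 and 1089 ± 81.7 in MyLa (log2 difference 1.17, limma adjusted p = 3.79e-05), and KIF14 had 700.2 ± 37.3 and 590.4 ± 57.5 (log2 difference 0.997, limma adjusted p = 0.00218). MZB1 and SH3BP5 had negative differences here too, of -0.72, limma adjusted p = 0.00159 and -0.69, limma adjusted p = 0.000592. PMCH, the precursor of melanin-concentrating hormone, rose in MyLa from 1416 ± 84.5 to 4368 ± 1044 and had 211 ± 98.4 and 203 ± 30.5 in MJ (log2 difference -1.52, limma adjusted p = 0.00332).

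**Figure D4:**
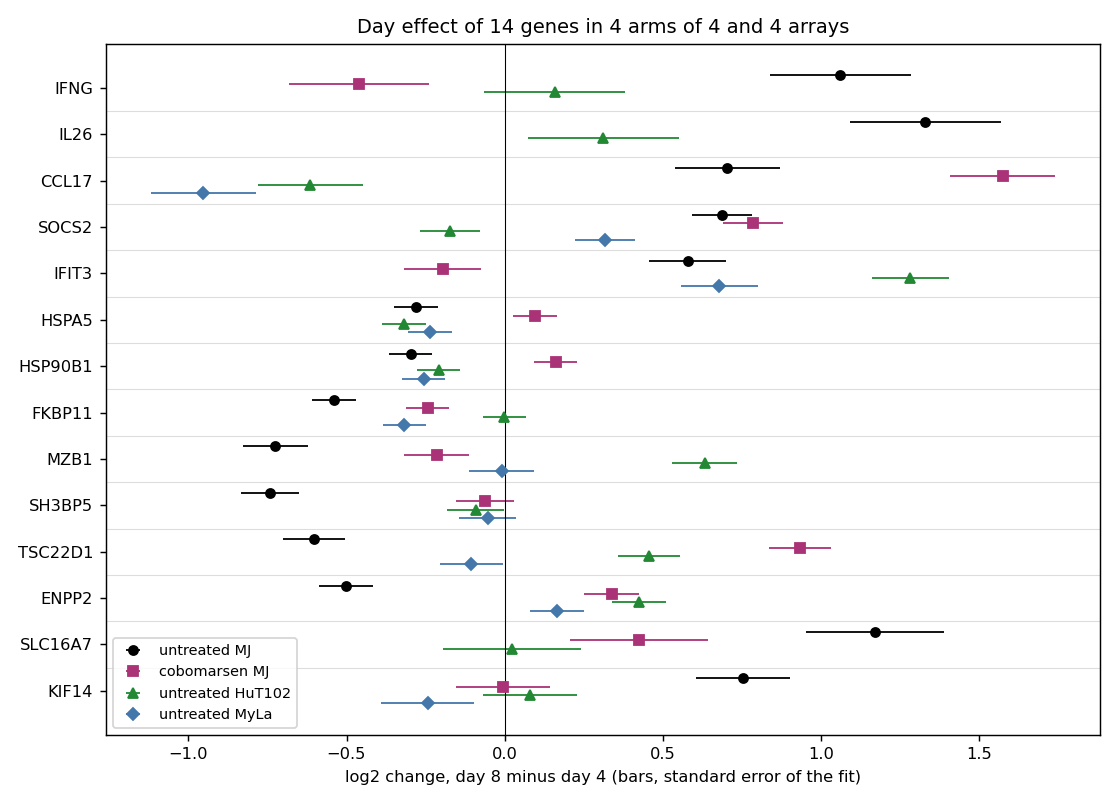
Log2 change from day 4 to day 8 with the standard error of the fit (bars) for 14 genes in untreated MJ, cobomarsen MJ, untreated HuT102 and untreated MyLa, each with 4 and 4 arrays, with no point where a gene was not tested in that arm. CCL17 lies above 0 in both MJ arms and below it in HuT102 and MyLa, and HSPA5 and HSP90B1 lie below 0 in the 3 untreated arms.

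In MJ wells with cobomarsen, 560 of 12034 genes were called between the days (4.65%), 245 higher (2.04%) and 315 lower (2.62%). The arrays of the 2 arms are separate, and across 11513 genes the log2 changes had r = 0.26. Of the 189 genes called in untreated MJ, 41 were called in the same direction with cobomarsen and 4 in the opposite one, 21.7% of the untreated calls and 7.32% of those with cobomarsen for the 41. The difference of the day effect, cobomarsen minus untreated, contains the untreated arrays again, so each arm's own values are given with it. It was called for 156 of 11929 genes (1.31%), 43 positive (0.36%) and 113 negative (0.947%). Of the 156, 146 were tested in both arms. The count was 74 without untreated day 4 array 1, 98, 91 and 78 without untreated day 8 arrays 1, 2 and 3, 66 and 100 without cobomarsen day 4 arrays 3 and 4, and 86 without cobomarsen day 8 array 3. The mitosis list had a median of -0.18 with cobomarsen, none higher and 8 lower of 37, and the ER chaperone list 0.11, 1 higher and none lower of 23.

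The rise of IFNG differed between the arms. IFNG had 231 ± 57.5 at day 4 and 163 ± 42.6 at day 8 with cobomarsen, against 1662 ± 129 and 3496 ± 385 untreated (log2 difference -1.52, limma adjusted p = 0.00439). IL26 was at or under the floor with cobomarsen, at 76.7 ± 33.8 and 55.0 ± 18.9, against 264 ± 62.5 and 679 ± 62.2 untreated, and MAML2 was under it, at 59.2 ± 15.1 and 38 ± 6.72. A day effect cannot be read at such signals, so no difference is given for these genes. IFIT3 had 144 ± 32.5 and 122 ± 7.79 with cobomarsen (log2 difference -0.77, limma adjusted p = 0.01). ITGAE, which rose untreated, fell with cobomarsen from 2772 ± 51.9 to 2167 ± 113 (log2 difference -0.65, limma adjusted p = 6.91e-07).

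Other genes differed the opposite way. TSC22D1, which fell untreated, rose with cobomarsen from 1823 ± 175 to 3500.1 ± 377 (log2 difference 1.54, limma adjusted p = 6.05e-11). ENPP2 also rose there, from 2844 ± 58.2 to 3601 ± 119 (log2 difference 0.84, limma adjusted p = 1.84e-05). SH3BP5 had 1149 ± 68.4 and 1100.3 ± 64.3 (log2 difference 0.68, limma adjusted p = 0.00131). The chaperone HSPA5 had 11179.6 ± 849 and 11943 ± 504 with cobomarsen (log2 difference 0.38, limma adjusted p = 0.0384), and HSP90B1 had 4818 ± 139 and 5394 ± 189.6 (log2 difference 0.46, limma adjusted p = 0.00527). CCL17 rose in both arms and more with cobomarsen, from 323 ± 77.6 to 978 ± 97.9 (log2 difference 0.87, limma adjusted p = 0.0445). SOCS2 rose in both, from 464 ± 39.4 to 813 ± 99.6 with cobomarsen, and the difference was not called (log2 difference 0.10, limma adjusted p = 0.947). The host transcript of miR-155 had 11499 ± 1156 and 15311 ± 629 with cobomarsen.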

How the data were processed

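RNA of 56 samples was hybridised to Affymetrix HG-U133 Plus 2 arrays. The deposited values are probe set intensities on a linear scale (MAS5 signal) made by the authors with that tool, per the submitters' processing notes, 1 array per sample, and each array has a trimmed mean near 500.1. Processing before that is not given in the sources used here.

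Of 54675 probe sets, 41091 carry 1 gene symbol in the platform annotation, and the one with the highest mean over 56 arrays stood for each of 19775 genes. The log2(signal + 16) values of all 14 groups were fitted in limma 3.58.1 (R 4.3.3) with an intensity trend. Genes were tested only if the arrays being compared averaged at least a signal of 74.0, the median over all values. Benjamini-Hochberg adjustment ran over all genes tested. Folds are on the log2(signal + 16) scale and understate changes of low signals. The number of arrays limits precision.

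Genes named were the 20 largest rises and 20 largest falls called without overlap and with a mean of at least 200, up to 6 called members of each list, list members given as not called, and, for the differences, some of the 8 largest each way and of the genes named before, if tested in both arms. KIF14, ASPM and KNL1 lie outside this rule and were added after their values were seen. They count among the 71 named genes called. The members and lists were chosen with earlier results of these data known. Alternatives were other pseudocounts, filters, scalings and sets of arrays, every probe set on its own, and each array left out. The fit was tested on simulated data.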

Additional observations from a re-analysis of the deposited data

Results flagged for a closer look

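In 14 of 184 groups of 4 arrays (7.61%) the gap between 1 array and the nearest other exceeded 0.829 of the range, and chance gives about 1 in 20. Day 4 array 2 was the array in 5 of them, high for CRELD2 (5956), EDEM2 (776), GMPPA (1021), SDF2L1 (3992) and TRIB3 (5508). Day 4 array 1 was high for MIR146A (1553) and TMEM273 (1249), and day 4 array 3 for DIDO1 (506). At day 8, array 1 was high for ARRB1 (254) and CXCL13 (2487), array 2 low for SLC3A2 (1549.8), array 3 low for MIR146A (1743), and array 4 was high for RPP25L (2306) and low for the 3′ to 5′ ratio of GAPDH (0.898).

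Day effects that differed by the test of the difference itself (limma, log2 scale) are listed by contrast, for genes tested in both arms. For MJ minus HuT102 the values were 1.32 for CCL17, 1.15 for SLC16A7, 0.86 for SOCS2, -2.31 for IFITM1, -2.30 for USP18, -1.36 for MZB1, -1.06 for TSC22D1, -0.93 for ENPP2, -0.70 for IFIT3, -0.65 for SH3BP5 and -0.54 for FKBP11. For MJ minus MyLa they were 1.71 for CCL22, 1.66 for CCL17, 1.17 for MAML2, 0.997 for KIF14, -1.52 for PMCH, -0.72 for MZB1 and -0.69 for SH3BP5. For cobomarsen minus untreated MJ they were 1.54 for TSC22D1, 0.87 for CCL17, 0.84 for ENPP2, 0.68 for SH3BP5, 0.46 for HSP90B1, 0.38 for HSPA5, -1.52 for IFNG, -0.77 for IFIT3 and -0.65 for ITGAE.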

How the results depend on the processing

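The count of 189 genes called in untreated MJ was 490 (280 higher, 210 lower) with only the 16 MJ arrays in the fit and 94 (67 and 27) with arrays centred on their median. Leaving out 1 array gave 96 to 202. The other settings gave 131 to 278. The difference of the untreated day effect, MJ minus HuT102, gave 720 with only the groups compared in the fit, against 471, and 307 to 565 with 1 array left out. The difference of the untreated day effect, MJ minus MyLa, gave 392 to 1018 with 1 array left out, against 714. The difference of the MJ day effect, cobomarsen minus untreated, gave 421 with only the groups compared, against 156, and 66 to 132 with 1 array left out. Leaving out arrays of HuT102, MyLa and cobomarsen MJ was added after seeing the data. The cause of these shifts was not tested. Of the 71 named genes called, 29 kept the call in every alternative run and none changed sign, and 148 of 1249 calls were lost in all. With the 8 arrays fitted alone, 8 of the 71 lost the call. Others kept it near the threshold, such as SYNE2 at a limma adjusted p of 0.0439 and SMAD5 at 0.0448. The miR-155 host transcript kept its direction, with log2 changes from 0.43 to 0.48. No paired analysis was possible because the array numbers follow the order of deposition and are not in the labels. Signals under 74.0 were close to background, which limits GNLY, FOSB and HMGN2P46, and CXCL13 and SLC16A7 in MyLa and IL26 and MAML2 with cobomarsen.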
